A study of Mus musculus with 8 samples.

Results

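Trem2 and 7 genes expressed with it in lipid-associated macrophages (LAMs) were followed across adhesion-related macrophages (ARMs) and stromal macrophages (SMs) of epididymal white adipose tissue (eWAT). The 8 genes, Trem2, Tyrobp, Cd9, Cd63, Gpnmb, Spp1, Lgals3 and Apoe, were taken by gene symbol from the expression tables of both diets, and all 8 were found among the 18040 genes listed in either table (16136 in both). All 8 also passed the filter on low counts in both diets. The mice were wild-type C57BL/6J males. From 6 weeks of age they received either a normal diet (ND) or, for 8 weeks, a high-fat diet (HFD). ARMs, freed from the adipocyte layer, and SMs, labelled NARM and taken from the stromal vascular pellet of the same digested fat, were sorted by flow cytometry for RNA-seq. There were 2 libraries in each of the 4 groups (HFD ARM, HFD SM, ND ARM and ND SM), with the cells of 6 HFD mice or of 10 ND mice pooled for each library. No mouse carried an engineered allele, so every group is a wild-type pool and variation between single mice was not measured.

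TREM2 is a surface receptor of macrophages that binds lipids and lipoproteins, including particles carrying apolipoprotein E. It has no signaling motif of its own and signals through the adaptor TYROBP (DAP12), which recruits the kinase SYK. In obese adipose tissue TREM2 is known to mark LAMs, macrophages around dying adipocytes that take up lipid and express lysosomal and lipid-handling genes. Of the other genes, Cd9 and Cd63 encode tetraspanins of the plasma membrane and of late endosomes, Gpnmb a lysosomal glycoprotein, Spp1 the secreted matrix protein osteopontin and Lgals3 the glycan-binding lectin galectin-3.

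Library totals ranged from 14508824 to 19040133 estimated reads. The macrophage identity of the sort was checked on 10 macrophage markers (among them Adgre1, Csf1r and Cd68), whose summed FPKM was 10482 to 12960 over the 8 libraries. None of these 10 markers was called between ARMs and SMs in either diet by edgeR or by DESeq2, with 4 (HFD) and 1 (ND) at an unadjusted p under 0.05. Markers of several non-immune cell types were higher in ARMs, with 9 of 10 adipocyte, 8 of 9 vascular endothelial and 5 of 8 fibroblast and progenitor markers called by edgeR in HFD mice, and 8, 1 and 7 in ND mice. The summed FPKM of 10 adipocyte markers was 209.9 and 226 in HFD ARMs against 48.5 and 49.7 in HFD SMs, and 181 and 297 in ND ARMs against 91.1 and 114 in ND SMs. For 9 vascular endothelial markers the sums were 55.5 and 53.2 against 22.5 and 15.7 in HFD mice, and 13.9 and 30.3 against 11.1 and 13.2 in ND mice. For 8 fibroblast and progenitor markers they were 169 and 209 against 124 and 112 in HFD mice, and 224 and 324 against 79.3 and 108 in ND mice. None of these adipocyte, endothelial and fibroblast markers was at 0 in both libraries of any group, and T and NK cell markers summed to at most 1.43 FPKM. Among the immune lists, the neutrophil genes S100a8, S100a9 and Retnlg ran the other way in ND mice. The mast cell genes Cpa3 and Mcpt4 had log2 fold changes of -0.06 and -0.09. The neutrophil and mast cell list summed to 10.9 and 32.9 FPKM in ND ARMs against 60.4 and 46.9 in ND SMs. Of its 5 genes, 1, the neutrophil gene S100a9, was called lower (log2 fold change -1.43, adjusted p = 0.0119 by edgeR), against 0.129% of all genes. In HFD mice the list summed to 10.5 and 12.6 FPKM in ARMs against 7.47 and 6.99 in SMs, with 0 of 4 called by edgeR. Dendritic cell markers summed to 75.7 and 77.2 FPKM in HFD ARMs against 102 and 105 in HFD SMs, with 0 of 6 called. Most of this sum was Cd209a, with a mean of 69.5 FPKM in HFD ARMs and 94.9 in HFD SMs. It passed the adjusted p below 1.5-fold (log2 fold change -0.48, adjusted p = 0.00101 by edgeR). Of the others, Xcr1 and Clec9a had positive log2 fold changes (0.44 and 0.33) and Flt3, Zbtb46 and Ccr7 negative ones, none past the adjusted p. Of the smaller lists, 3 of 5 lymphatic markers were called higher in ARMs in each diet and 5 of 6 mesothelial markers in ND mice. Of pericyte and smooth muscle markers, 2 of 6 (HFD) and 1 of 5 (ND) were called higher. Of 5 monocyte markers 1, Chil3, was called higher in HFD ARMs (log2 fold change 0.85, adjusted p = 0.0387 by edgeR) and 0 in ND mice. DESeq2 did not call Chil3. Over all genes the shares called higher were 4.46% (HFD) and 3.55% (ND). The lymphatic calls were Flt4, Mmrn1 and Reln in HFD mice, at no more than 0.51 FPKM, and Ccl21a, Mmrn1 and Reln in ND mice. DESeq2 called 1 of the 5 in each diet. Prox1 was called in neither diet (log2 fold change -0.17 and 0.07). Without HFD ARM replicate 2 none of the 8 fibroblast markers was called in HFD mice, and without ND ARM replicate 2 the adipocyte calls in ND mice went from 8 to 3.

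**Figure D1:**
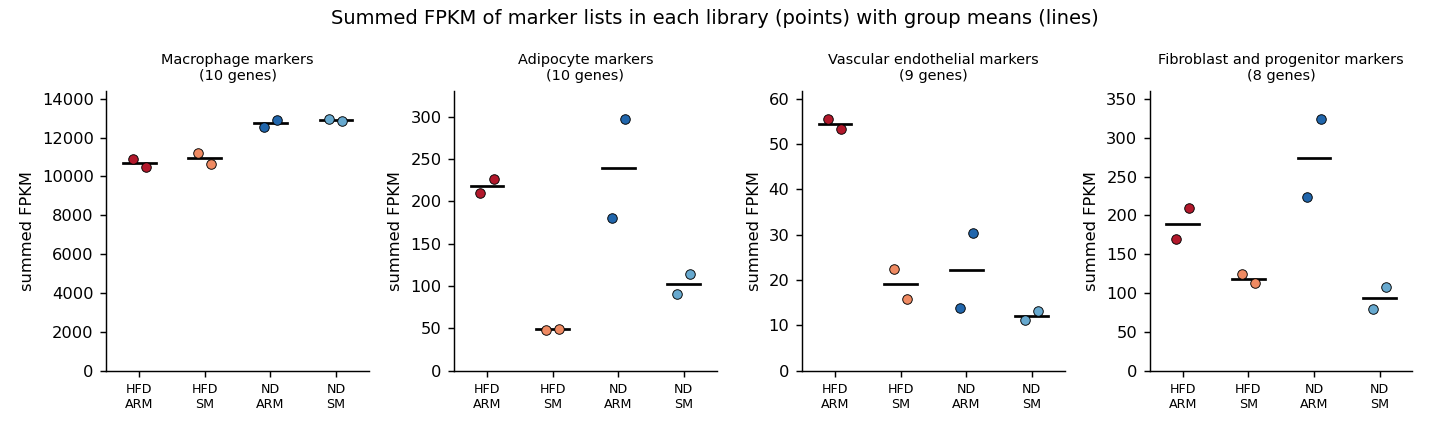
Summed FPKM of marker lists for macrophages, adipocytes, vascular endothelium and fibroblasts (y axes) in each library (points) of the 4 groups (x axis), with group means as lines. Macrophage markers lay between 10482 and 12960 in every library, while the adipocyte, endothelial and fibroblast sums were higher in ARMs than in SMs of the same diet.

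Within each diet, ARMs were set against SMs to ask whether the fraction that adheres to adipocytes carries more of the LAM markers. The call required a change of more than 1.5-fold (0.585 on the log2 scale) together with an adjusted p below 0.05, where p came from the quasi-likelihood test of edgeR and was adjusted by Benjamini-Hochberg over all genes tested. In HFD mice 3 of the 8 genes, Gpnmb, Spp1 and Cd9, rose in ARMs, against 4.46% of all genes tested. In ND mice 2 of the 8, Gpnmb and Spp1, rose, against 3.55% of all genes. Lgals3 in both diets and Cd9 in ND mice passed the adjusted p at a smaller fold, which brought the genes past the adjusted p to 4 of 8 in each diet, against 6.53% (HFD) and 4.28% (ND) of all genes higher in ARMs at any fold. Trem2, Tyrobp, Cd63 and Apoe passed in neither diet. None of the 8 was called lower in ARMs by edgeR or by DESeq2 in either diet, against 0.292% (HFD) and 0.129% (ND) of all genes (3.02% and 0.458% at any fold), and 1, Apoe in HFD mice, was lower at an unadjusted p under 0.05. The median log2 fold change of the 8 genes was 0.33 in HFD mice and 0.20 in ND mice, beside -0.01 and -0.02 over all genes tested. In pooled libraries of sorted cells, a larger share of cells that express a gene and more RNA per cell cannot be told apart.

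**Figure D2:**
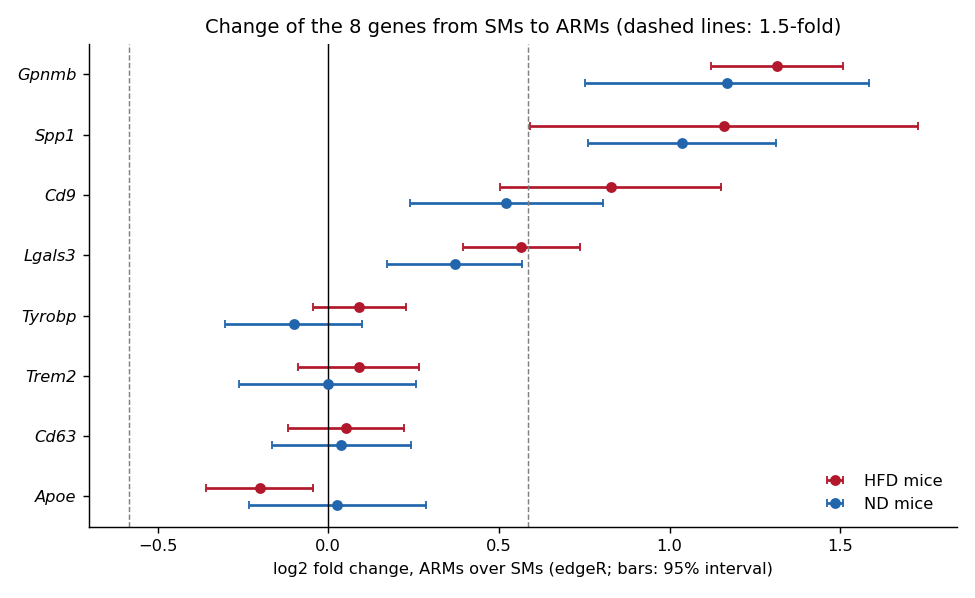
Log2 fold change from SMs to ARMs (x axis) of the 8 genes (y axis) in HFD mice (red) and ND mice (blue), with 95% intervals from edgeR and dashed lines at 1.5-fold in either direction. Gpnmb and Spp1 lie above the 1.5-fold line in both diets, Cd9 above it in HFD mice, Lgals3 just under it, and the intervals of Trem2, Tyrobp and Cd63 include 0 in both diets.

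Trem2 lies on chromosome 17, at chr17:48346401-48354147 on the plus strand of GRCm38, with 5 exons. Its deposited FPKM was 78.0 and 92.1 in HFD ARMs, 77.1 and 80.1 in HFD SMs, 83.8 and 84.1 in ND ARMs, and 95.7 and 72.3 in ND SMs. ARM and SM libraries overlapped in both diets, and Trem2 stood at rank 756 to 994 by FPKM among the genes of a library. Its log2 fold change was 0.09 (SE 0.080, 95% interval -0.09 to 0.27, adjusted p = 0.570, n = 2 against 2) in HFD mice and -0.00 (SE 0.12, -0.26 to 0.26, adjusted p = 0.997) in ND mice by edgeR. Both intervals lay inside the 1.5-fold limits. The group with the widest spread was ND SM, with a mean of 84.0 ± 16.6 FPKM (SD, n = 2), and leaving out its replicate 1 or 2 gave a log2 fold change of 0.21 or -0.19, neither called.

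Tyrobp (chr7:30413760-30417585, plus strand, 5 exons) was expressed several-fold above Trem2 on this per-length scale. It was at 705 and 692 FPKM in HFD ARMs, 657 and 629 in HFD SMs, 636 and 643 in ND ARMs and 664 and 698 in ND SMs. Both ARM libraries lay above both SM libraries in HFD mice and below them in ND mice. Neither change was past the test, with a log2 fold change of 0.09 (SE 0.061, adjusted p = 0.425) in HFD mice and -0.10 (SE 0.094, adjusted p = 0.714) in ND mice by edgeR. Separation of this kind was common: both ARM libraries lay above both SM libraries for 29.2% of all genes in HFD mice and 20.9% in ND mice, and below them for 21.3% and 22.4%. Of the 8 genes, 5 (HFD) and 4 (ND) were above in this sense and 1 in each diet was below.

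The genes around the receptor were examined as a list of 22 TREM2 signaling partners. Of the 20 tested in HFD mice, 1 was called higher (5%, near the 4.46% of all genes) and none lower, and of the 21 tested in ND mice none was called by edgeR or DESeq2, with 4 at an unadjusted p under 0.05. Malt1, a paracaspase downstream of SYK and CARD9, was at 15.6 and 19.2 FPKM in HFD ARMs against 9.17 and 13.2 in HFD SMs, a log2 fold change of 0.59 (SE 0.14, adjusted p = 0.0237 by edgeR). That call was lost with DESeq2 and on leaving out either HFD ARM library or HFD SM replicate 1, with values of 0.71, 0.46 and 0.37. In ND mice Malt1 passed the adjusted p but not the fold (log2 fold change 0.48, adjusted p = 0.0218), and was called without ND SM replicate 2 (0.63). The median log2 fold change of the list was -0.01 in HFD mice and 0.09 in ND mice.

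Apoe (chr7:19696109-19699188, minus strand, 4 exons), whose product is a TREM2 ligand and the apolipoprotein of macrophage cholesterol efflux, was among the 5 highest genes of every library. It was at 5881 and 5318 FPKM in HFD ARMs and 6534 and 6102 in HFD SMs, and at 7769 and 9567 in ND ARMs and 8922 and 8098 in ND SMs. Both HFD ARM libraries were below both HFD SM libraries, while the ND libraries overlapped. The log2 fold change was -0.20 (SE 0.070, 95% interval -0.36 to -0.04, adjusted p = 0.110 by edgeR) in HFD mice and 0.03 (SE 0.12, adjusted p = 0.959) in ND mice. Of 12 other apolipoprotein, lipoprotein receptor and cholesterol efflux genes, none of 10 tested in HFD mice was called by edgeR or DESeq2 (4 at an unadjusted p under 0.05), while leaving out either HFD SM library gave 1 call. Below 1.5-fold, Nr1h3, a gene outside the naming rule, was higher in HFD ARMs (log2 fold change 0.54, adjusted p = 0.0232 by edgeR). In ND mice 2 of 9 rose in ARMs (22.2%, against 3.55% of all genes). Clu, the secreted chaperone apolipoprotein J, was at 5.51 and 7.16 FPKM in ND ARMs against 2.47 and 2.24 in ND SMs (log2 fold change 1.42, SE 0.21, adjusted p = 0.000803 by edgeR). Apod, the lipocalin apolipoprotein D, was at 2.31 and 2.87 against 1.06 and 1.26 FPKM (1.16, SE 0.27, adjusted p = 0.0219), a call lost with DESeq2 and without ND ARM replicate 2 (0.99), ND SM replicate 1 (1.04) or ND SM replicate 2 (1.30). The list's median log2 fold change was 0.27 in HFD mice and 0.12 in ND mice.

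Gpnmb (chr6:49036546-49070929, plus strand, 11 exons) encodes a transmembrane glycoprotein of lysosomes and is a target of the MiT/TFE factors that drive lysosomal genes. It showed the highest fold of the 8 genes in both diets. FPKM was 42.3 and 50.2 in HFD ARMs against 19.1 and 17.3 in HFD SMs, and 34.4 and 51.2 in ND ARMs against 14.4 and 23.7 in ND SMs. ARM and SM libraries did not overlap in either diet. The log2 fold change was 1.31 (SE 0.087, 95% interval 1.12 to 1.51, a fold of 2.49, adjusted p = 2.05e-05 by edgeR) in HFD mice. In ND mice it was 1.17 (SE 0.19, 0.75 to 1.58, a fold of 2.25, adjusted p = 0.00208). Without ND ARM replicate 2, the library with the highest sums of adipocyte, endothelial and fibroblast markers in ND mice, the ND value was 0.84 (adjusted p = 0.0891) and Gpnmb was not called there, nor was it called in ND mice by DESeq2 (1.17, adjusted p = 0.176). In HFD mice it was called without each library in turn (1.20 to 1.42).

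Spp1 (chr5:104435118-104441050, plus strand, 7 exons) was the lowest of the 8 genes, at rank 2753 to 6618 in a library. It was at 10.6 and 21.4 FPKM in HFD ARMs (274 and 551 estimated reads) against 6.91 and 6.95 in HFD SMs (187 and 188 reads). In ND mice it was at 26.8 and 23.9 in ARMs (558 and 442 reads) against 11.6 and 13.1 in SMs (220 and 266 reads). The ARM libraries lay above the SM libraries of the same diet, and the HFD ARM libraries differed between themselves by more than any other pair. The log2 fold change was 1.16 (SE 0.26, 95% interval 0.59 to 1.73, a fold of 2.23, adjusted p = 0.0191 by edgeR) in HFD mice and 1.04 (SE 0.13, 0.76 to 1.31, a fold of 2.05, adjusted p = 0.00026) in ND mice. Without HFD ARM replicate 2 the HFD value was 0.58 (adjusted p = 0.0973, not called) and without HFD ARM replicate 1 it was 1.57, whereas in ND mice the call held without each library in turn (0.94 to 1.13). The HFD call was also lost with DESeq2 (1.16, adjusted p = 0.184), with limma on log2(FPKM + 1) (1.02, adjusted p = 0.0503) and without a filter on low counts in edgeR (1.16, adjusted p = 0.204).

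The upstream sequences of Gpnmb and Spp1, the genes that edgeR called higher in ARMs of both diets, are shown beside that of Trem2, which did not pass in either. Each is the 250 bases before a RefSeq transcript start (GRCm38.p6), written 5′ to 3′ on the gene's own strand, and capitals mark a match to one of 4 searched motifs. The motifs, searched on both strands, were the AP-1-like letters TGANTCA (N for any base), the MiT/TFE E-box CACGTG, the M-box TCATGTG and a PU.1 site GAGGAAGT. None overlapped another here.
Gpnmb (chr6:49036268-49036517, plus strand): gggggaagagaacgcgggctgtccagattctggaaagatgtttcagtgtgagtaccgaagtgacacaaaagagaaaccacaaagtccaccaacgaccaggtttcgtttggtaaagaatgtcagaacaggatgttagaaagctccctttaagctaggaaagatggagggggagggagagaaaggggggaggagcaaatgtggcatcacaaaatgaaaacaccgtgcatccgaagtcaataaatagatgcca
Spp1 (chr5:104434861-104435110, plus strand): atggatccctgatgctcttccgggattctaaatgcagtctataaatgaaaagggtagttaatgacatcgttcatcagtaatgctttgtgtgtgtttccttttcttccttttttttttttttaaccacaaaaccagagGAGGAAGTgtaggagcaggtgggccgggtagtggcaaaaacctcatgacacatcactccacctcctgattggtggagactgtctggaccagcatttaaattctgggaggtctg
Trem2 (chr17:48346151-48346400, plus strand): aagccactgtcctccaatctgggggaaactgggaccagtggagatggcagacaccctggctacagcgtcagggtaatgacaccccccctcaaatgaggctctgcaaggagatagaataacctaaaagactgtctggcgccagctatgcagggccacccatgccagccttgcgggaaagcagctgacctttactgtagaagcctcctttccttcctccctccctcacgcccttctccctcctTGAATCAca
The Trem2 window held 1 match to the AP-1-like letters, 9 to 3 bases before the start. It read TGAATCA, with A at the open position. The Spp1 window held 1 PU.1 match, 113 to 106 bases before the start. These are letter matches, and binding was not tested. The Gpnmb window held none of the 4 motifs. Of 32851 such windows, 6.75% held the AP-1-like letters TGANTCA, 6.02% the E-box, 3.25% the M-box and 2.44% the PU.1 letters. Windows were found for 7 of the 8 genes (10 windows, Tyrobp not among them), and no other window of these genes held a match.

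The 4 MiT/TFE factors themselves were compared because Gpnmb is one of their known targets. None was called in either diet by edgeR or DESeq2, with 1 (HFD) and 0 (ND) at an unadjusted p under 0.05. Tfe3, the highest, was at 90.1 and 84.2 FPKM in HFD ARMs against 87.3 and 88.5 in HFD SMs, and at 95.9 and 98.4 in ND ARMs against 89.7 and 94.8 in ND SMs. Mitf was at 19.3 and 19.6 against 21.6 and 20.4 FPKM in HFD mice and at 31.4 and 29.0 against 29.6 and 31.6 in ND mice. Log2 fold changes of these transcripts were -0.04 and 0.08 for Tfe3 and -0.15 and -0.02 for Mitf, in HFD and ND mice.

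Receptors for osteopontin were examined beside Spp1. Of 8 receptor genes, 0 were called in HFD mice by edgeR or DESeq2, although 4 passed the adjusted p below 1.5-fold. In ND mice 2 were called, both higher in ARMs (25%, against 3.55% of all genes). Itga5, the fibronectin receptor α chain, was at 69.2 and 73.6 FPKM in ND ARMs against 41.5 and 44.4 in ND SMs (log2 fold change 0.74, SE 0.096, adjusted p = 0.000334 by edgeR), and its HFD value was 0.33 (adjusted p = 0.0186). Itgb5, a β chain that pairs with αv, was at 19.6 and 26.9 against 14.2 and 16.3 FPKM in ND mice (0.61, SE 0.14, adjusted p = 0.0174), with 0.51 (adjusted p = 0.00122) in HFD mice. The ND call of Itgb5 was lost with limma (0.57) and without ND ARM replicate 2 (0.36) or ND SM replicate 1 (0.51), and the number of ND calls in the list was 1 to 4 over the left-out libraries. The list's median log2 fold change was 0.14 in HFD mice and 0.26 in ND mice.

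Lgals3 (chr14:47367751-47386160, plus strand, 6 exons) had the smallest standard errors of the genes that passed. It was at 517 and 607 FPKM in HFD ARMs against 362 and 381 in HFD SMs, and at 273 and 274 in ND ARMs against 213 and 209.85 in ND SMs. No 2 groups overlapped, and the order was HFD ARM, HFD SM, ND ARM and ND SM. The ARM against SM log2 fold change was 0.57 (SE 0.077, 95% interval 0.40 to 0.74, a fold of 1.48, adjusted p = 0.00134 by edgeR) in HFD mice and 0.37 (SE 0.093, 0.17 to 0.57, a fold of 1.29, adjusted p = 0.0324) in ND mice. The HFD value crossed 1.5-fold, and was called, without HFD ARM replicate 1 (0.67) or HFD SM replicate 2 (0.60). In ND mice its adjusted p was 0.0741 to 0.216 when any 1 library was left out, at log2 fold changes of 0.36 to 0.38. Of the other galectin genes, 1 of 6 tested was called in HFD mice (16.7%, against 4.46% of all genes) and 0 in ND mice (1 at an unadjusted p under 0.05, and 0 by DESeq2). That gene was Lgals12, an adipocyte galectin of the lipid droplet, at 0.53 and 0.51 FPKM in HFD ARMs against 0.13 and 0.11 in HFD SMs (log2 fold change 2.15, SE 0.43, adjusted p = 0.0113). It was not called by DESeq2, nor without either HFD ARM library (2.12 and 2.19) or HFD SM replicate 2 (2.03), and in ND mice it was at 0.63 and 1.05 against 0.37 and 0.35 FPKM.

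The tetraspanins Cd9 and Cd63, used together on the cell surface to sort LAMs, differed from each other. Cd9 (chr6:125460266-125494791, minus strand, 8 exons) was at 27.9 and 39.5 FPKM in HFD ARMs against 20.4 and 16.9 in HFD SMs, and at 30.4 and 37.7 in ND ARMs against 22.4 and 24.9 in ND SMs. Cd63 (chr10:128900989-128912822, plus strand, 9 exons) was at 325 and 329 FPKM against 333 and 286 in HFD mice, and at 364 and 334 against 347 and 329.9 in ND mice. The Cd9 libraries did not overlap between ARMs and SMs in either diet, and the Cd63 libraries overlapped in both. For Cd9 the log2 fold change was 0.83 (SE 0.15, 95% interval 0.50 to 1.15, a fold of 1.77, adjusted p = 0.00615 by edgeR) in HFD mice and 0.52 (SE 0.13, 0.24 to 0.80, a fold of 1.44, adjusted p = 0.0343) in ND mice. For Cd63 it was 0.05 (SE 0.076, -0.12 to 0.22, adjusted p = 0.754) and 0.04 (SE 0.096, -0.17 to 0.24, adjusted p = 0.915). By RT-PCR the paper reported Cd9 higher in ARMs, and by flow cytometry it reported more surface CD9 on ARMs of obese mice. Cd9 was not called in HFD mice without HFD ARM replicate 2 (0.57, adjusted p = 0.102) or without a filter on low counts (0.83, adjusted p = 0.131), and it was called in ND mice without ND ARM replicate 1 (0.67) or ND SM replicate 2 (0.60).

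Cd9 is also expressed by endothelial cells, fibroblasts and adipocytes, whose marker sums were higher in ARMs as given above. The part of these cells in the values of Cd9, Gpnmb, Spp1 and Lgals3 was not tested. The paper reports that ARMs take up adipocyte mRNA by adhering to adipocytes. The part of such mRNA in these values, or in the adipocyte marker sums, was not tested here either. Among ND ARM libraries, replicate 2 had the higher Cd9 and Gpnmb and also the higher marker sums, and it had the lower Spp1. Among HFD ARM libraries, replicate 2 had the higher Cd9, Gpnmb, Spp1 and Lgals3, with higher adipocyte and fibroblast sums and a lower endothelial sum.

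Of 23 other tetraspanin genes, 7 of 21 tested were called higher in HFD ARMs (33.3%, against 4.46% of all genes) and none lower, while 0 of 20 were called in ND mice by edgeR or DESeq2 (4 at an unadjusted p under 0.05). Below 1.5-fold, Cd37, a gene outside the naming rule, was lower in HFD ARMs (-0.29, adjusted p = 0.0174 by edgeR). The median log2 fold change of the list was 0.07 in HFD mice and 0.08 in ND mice, and none of the 7 exceeded 7.37 FPKM in an HFD library. Tspan12, a Norrin co-receptor of endothelium, was at 1.44 and 0.98 FPKM in HFD ARMs against 0.61 and 0.39 in HFD SMs, a log2 fold change of 1.25 (SE 0.32, adjusted p = 0.0368 by edgeR). Tspan7 was at 5.56 and 5.97 against 2.73 and 2.47 FPKM (1.12, SE 0.15, adjusted p = 0.0011). Tspan9 and Tspan18 had log2 fold changes of 1.11 (adjusted p = 0.0114) and 0.93 (adjusted p = 0.0288) at no more than 1.17 FPKM. The count of 7 fell to 3 with DESeq2, to 1 without a filter on low counts, and to 2, 1, 5 and 4 without HFD ARM replicate 1, HFD ARM replicate 2, HFD SM replicate 1 and HFD SM replicate 2, with Tspan7 in each. No difference between the diets was tested for this list.

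The rest of the LAM signature was read from 26 further genes of lipid uptake, lysosomes and matrix breakdown. In HFD mice 7 of 26 were called higher in ARMs (26.9%, against 4.46% of all genes) and none lower, and in ND mice 5 of 26 (19.2%, against 3.55%) and none lower, with list medians of 0.10 and 0.15 on the log2 scale. Below 1.5-fold, Emp1, a gene outside the naming rule, was lower in HFD ARMs (log2 fold change -0.30, adjusted p = 0.0161 by edgeR). The study names Fabp4 and Fabp5 from these same libraries, so that direction is not independent evidence. By RT-PCR on pools of another size, the paper reported both genes higher in HFD ARMs. It reported no significant difference between ARMs and SMs for either gene in ND mice. Fabp4, a fatty acid carrier that adipocytes and endothelial cells also express, was at 359 and 414 FPKM in HFD ARMs against 138 and 97.4 in HFD SMs (log2 fold change 1.69, SE 0.13, adjusted p = 5.03e-05 by edgeR), and at 138 and 197 against 79.9 and 118 in ND mice (0.74, SE 0.17, adjusted p = 0.0208). The ND call of Fabp4 was lost with DESeq2 (adjusted p = 0.533), with limma (adjusted p = 0.107) and without ND ARM replicate 2 (0.45) or ND SM replicate 1 (0.48), and its value reached 1.05 without ND SM replicate 2. Mmp12, the macrophage elastase, was at 38.9 and 59.7 against 21.7 and 19.6 FPKM in HFD mice (1.23, SE 0.16) and at 102 and 107 against 70.5 and 55.2 in ND mice (0.71, SE 0.12). ARM and SM libraries of the same diet did not overlap for either gene.

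Fabp5, the epidermal fatty acid carrier, had log2 fold changes of 1.11 (HFD) and 0.61 (ND). For Itgax, the CD11c integrin chain, they were 1.05 and 0.67. Acp5, the tartrate-resistant acid phosphatase of osteoclasts and macrophages, gave 0.76 and 0.73, and all of these passed both criteria in edgeR. Cd36, the fatty acid translocase, is outside the naming rule and was chosen after its values were seen. It was at 735 and 721 against 811 and 698 FPKM in HFD mice and had log2 fold changes of -0.08 and 0.02. For the protein, by flow cytometry, the paper reported a higher ratio of CD36+ cells in ARMs than in SMs of HFD mice. It reported no significant difference in ND mice. By RT-PCR it reported Itgax higher in ARMs. Without HFD ARM replicate 2 the HFD calls of the list went from 7 to 4, and Itgax (0.88) was among those lost, and without a filter on low counts they were 2. The ND calls were 4 with DESeq2, 2 without ND ARM replicate 2 (Acp5 and Mmp12), 3 without ND SM replicate 1, 4 without ND SM replicate 2 and 6 without ND ARM replicate 1.

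**Figure D3:**
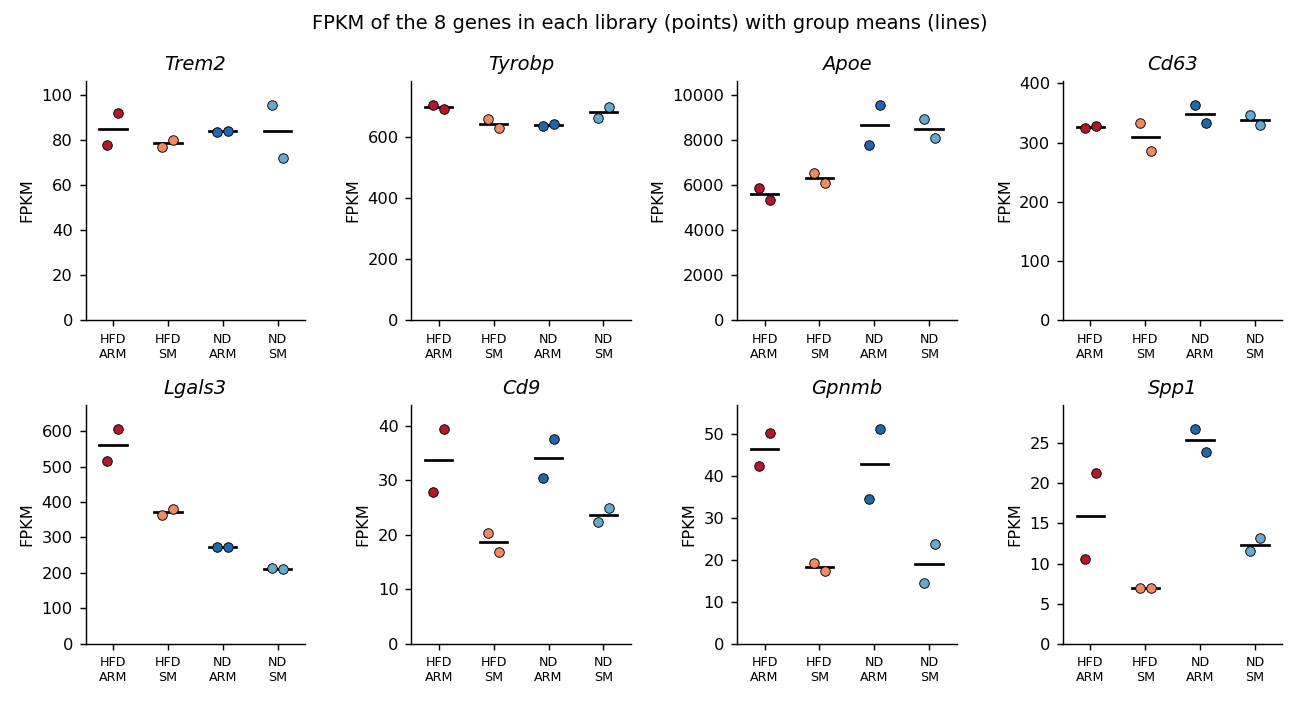
Deposited FPKM (y axes, linear from 0) of each of the 8 genes in each library (points) of the 4 groups (x axis), with group means as lines. Trem2, Tyrobp and Cd63 overlap or lie close between ARMs and SMs, whereas Lgals3, Cd9, Gpnmb and Spp1 are higher in both ARM libraries of each diet.

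As all of these genes are known from the same LAMs, each was also set against Trem2 within its own library. Gpnmb was 0.543 and 0.544 times the Trem2 FPKM in HFD ARMs against 0.248 and 0.216 in HFD SMs, and 0.410 and 0.609 in ND ARMs against 0.150 and 0.328 in ND SMs. Lgals3 was 6.62 and 6.59 times Trem2 in HFD ARMs, 4.70 and 4.76 in HFD SMs, 3.26 and 3.25 in ND ARMs and 2.23 and 2.90 in ND SMs. Spp1 was 0.135 and 0.232 times Trem2 against 0.0896 and 0.0868 in HFD mice, and 0.320 and 0.284 against 0.121 and 0.182 in ND mice. For these genes, and for Cd9, the ARM ratios lay above the SM ratios of the same diet without overlap. The ratios of Tyrobp to Trem2 (6.93 to 9.65 over the 8 libraries) overlapped between ARMs and SMs in both diets. The ratios are a description of the same libraries and were given no test.

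**Figure D4:**
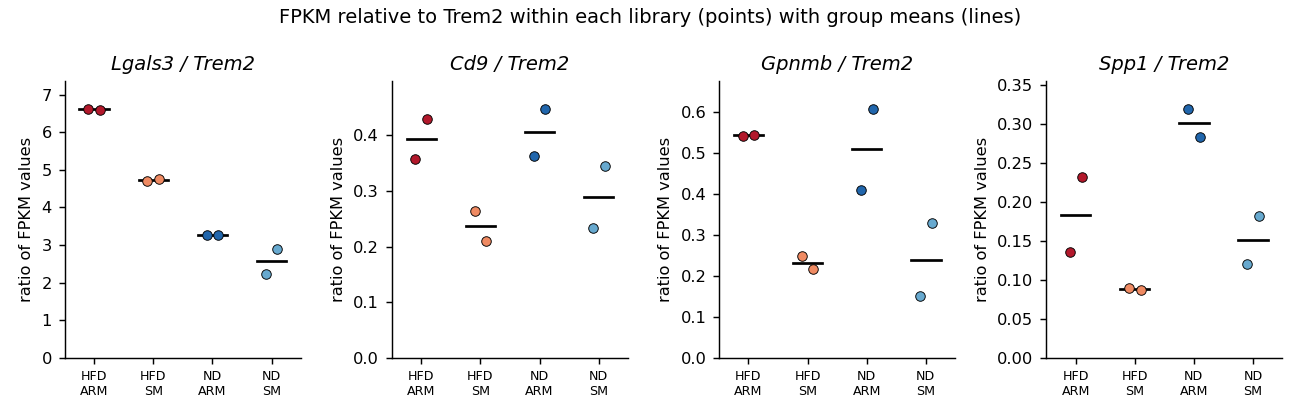
FPKM of Lgals3, Cd9, Gpnmb and Spp1 divided by that of Trem2 in the same library (y axes, linear from 0), for each library (points) of the 4 groups (x axis), with group means as lines. In each diet both ARM ratios lie above both SM ratios, and the Lgals3 ratio is higher in HFD than in ND libraries.

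Likeness of pattern was measured as Pearson's r with Trem2 over the 8 libraries, on log2(FPKM + 1) centred within each diet, among 7314 genes with a mean FPKM of at least 5 in both tables. The values share libraries and depth and are a description. None of the other LAM genes was close to Trem2: r was 0.41 for Lgals3, 0.37 for Spp1, 0.32 for Cd9, 0.28 for Cd63, 0.07 for Gpnmb, -0.09 for Apoe and -0.13 for Tyrobp, at ranks from 1635 to 4806 of 7314. The 5 most alike were Eci2, an enoyl-CoA isomerase of fatty acid oxidation (r = 0.984), Capns1, the small calpain subunit (0.978), Usp5, a deubiquitinase (0.976), Nfyc, a subunit of the factor NF-Y (0.973), and Mdh2, mitochondrial malate dehydrogenase (0.968). All 5 shared with Trem2 a high value in ND SM replicate 1 and a low one in ND SM replicate 2, such as 18.96 and 14.94 FPKM for Eci2. They also shared its high value in HFD ARM replicate 2, such as 17.67 FPKM for Eci2 against 14.68 in HFD ARM replicate 1. The r values thus rest partly on differences between replicates and do not measure co-expression within cells. On log2 CPM, 4 of the 5 stayed among the 5 most alike.

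Whether the ARM against SM change differed between the diets was tested as an interaction over all 8 libraries. For none of the 8 genes did it pass, against 0.165% of all 13358 genes (22 genes), and none was under 0.05 unadjusted (7.61% of all genes) or passed with DESeq2. The HFD change minus the ND change was 0.29 (95% interval -0.18 to 0.76, adjusted p = 0.866 by edgeR) for Cd9, 0.18 (-0.07 to 0.43, adjusted p = 0.818) for Lgals3 and 0.13 (-0.46 to 0.73, adjusted p = 0.975) for Gpnmb on the log2 scale. It was 0.10 (-0.59 to 0.80) for Spp1, 0.07 (-0.27 to 0.42) for Trem2 and -0.24 (-0.56 to 0.07) for Apoe. The intervals of Cd9, Gpnmb and Spp1 include differences of over 1.5-fold, so a difference of that size is not excluded for them. The call of Cd9 in HFD mice alone is therefore not a shown difference between diets.

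HFD was compared with ND within each cell type by values only, since the HFD and ND tables may have been made differently. Diet and table cannot be told apart. The share of genes with counts that are not whole was 32.3% to 32.9% in HFD libraries and 8.55% to 9.36% in ND libraries. The gene length implied by count and FPKM, HFD over ND, was 1.30 for Tyrobp, 1.18 for Cd63, 1.15 for Trem2, 1.13 for Cd9, 1.11 for Lgals3, 1.10 for Spp1, 1.06 for Apoe and 1.05 for Gpnmb. Over all genes, the median log2 ratio of FPKM, HFD over ND, was -0.12 in ARMs and -0.15 in SMs. In ARMs 2 of the 8 genes had both HFD libraries above both ND libraries in FPKM and 3 had them below, against 25.8% and 46% of all genes. In SMs these counts were 1 and 4, against 24.6% and 49.5%.

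Lgals3 was higher in HFD mice by 2.05-fold in ARMs and 1.76-fold in SMs (log2 ratio 1.04 and 0.81). Spp1 was lower, with log2 ratios of -0.67 in ARMs and -0.83 in SMs, and so was Apoe, with -0.63 and -0.43. The Spp1 ratio in ARMs was -0.25 without HFD ARM replicate 1 and -1.26 without HFD ARM replicate 2. For these 3 genes the HFD and ND libraries did not overlap, in ARMs or in SMs, on FPKM, on TPM or on TMM-normalized counts (CPM), where the ratios were 1.16 and 0.96 for Lgals3, -0.55 and -0.68 for Spp1 and -0.57 and -0.35 for Apoe. Mean Apoe FPKM was 5599 ± 398 in HFD ARMs and 8668 ± 1272 in ND ARMs (SD, n = 2 each), and mean Spp1 FPKM 16.0 ± 7.62 and 25.4 ± 2.09.

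The other 5 genes had no direction that held in both cell types on all 3 scales. Trem2 had a log2 ratio of 0.02 in ARMs and -0.10 in SMs on FPKM, with an overlap in both. On TMM-normalized counts it was 0.19 in ARMs, without overlap, and 0.09 in SMs, with an overlap. Tyrobp in SMs was -0.08 on FPKM and 0.28 on TMM-normalized counts, without overlap on either, and in ARMs it was higher in HFD libraries without overlap on all 3 scales (0.13 on FPKM, 0.15 on TPM and 0.48 on TMM-normalized counts). Cd63 in ARMs was -0.09 and 0.12, again without overlap on either, while Gpnmb stayed between -0.07 and 0.16 and overlapped throughout. Cd9 was close in ARMs (-0.01 on FPKM) and lower in HFD SMs on FPKM (-0.35, no overlap), with the same sign but an overlap on TMM-normalized counts (-0.17).

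**Figure D5:**
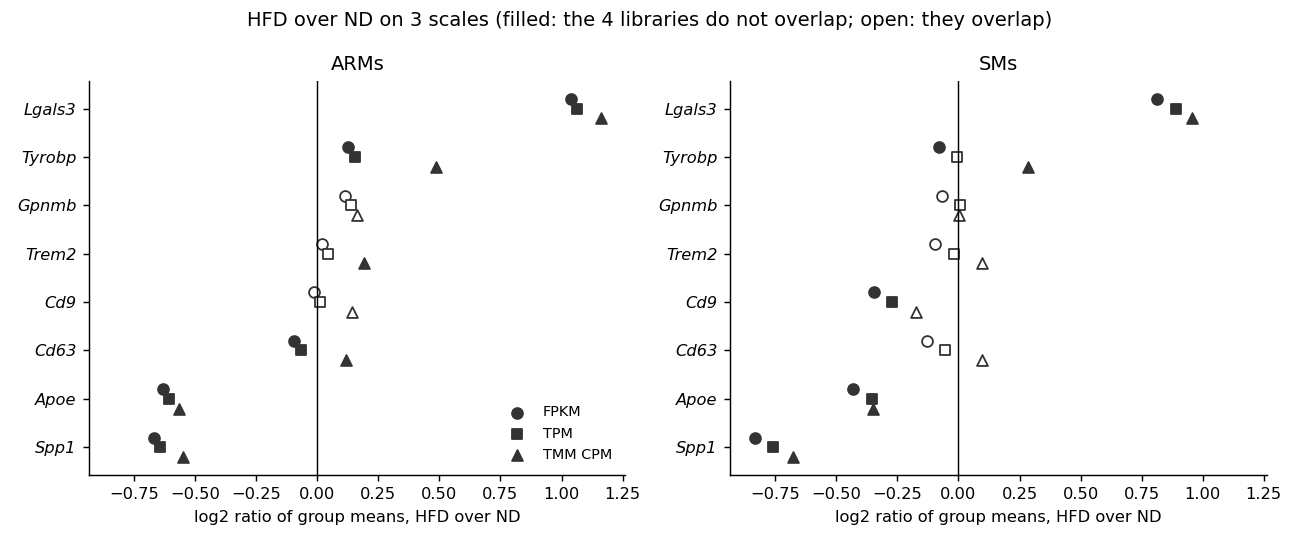
Log2 ratio of group means, HFD over ND (x axes), of the 8 genes (y axis) in ARMs and SMs on FPKM (circles), TPM (squares) and TMM-normalized counts (triangles), filled where the 4 libraries do not overlap and open where they do. Lgals3 lies to the right and Spp1 and Apoe to the left of 0 on all 3 scales in both cell types, while Tyrobp in SMs and Cd63 in ARMs change side between FPKM and TMM-normalized counts.

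Across the 4 groups the 8 genes had different orders of mean FPKM. Gpnmb ran from HFD ARM and ND ARM, which overlapped, to ND SM and HFD SM, which also overlapped. Spp1 ran from ND ARM through HFD ARM and ND SM, which overlapped, to HFD SM, and Cd9 from ND ARM and HFD ARM, which overlapped, through ND SM to HFD SM. For Apoe the order was ND ARM and ND SM, which overlapped, then HFD SM and HFD ARM.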

How the data were processed

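Macrophages sorted by FACS from eWAT were sequenced as bulk RNA on an Illumina instrument. The authors deposited a table per diet, in which each gene has, for every library, an estimated count, an FPKM (scaled to gene length and library size) and a TPM. The aligner, counter and annotation are not given in the sources used here, and the submitters' processing notes name mm10. Columns holding the authors' group means were not used. In the deposited tables more estimated counts were not whole in HFD than in ND libraries, and why was not stated. NARM was read as SM.

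Here the estimated counts were rounded and fitted for each diet with edgeR 4.0.16 in R 4.3.3 (TMM, filterByExpr, glmQLFit, glmQLFTest), with Benjamini-Hochberg adjustment over 13337 (HFD) and 12441 (ND) genes. Standard errors were the log2 fold change divided by the square root of F. The interaction of cell type and diet was fitted over the 8 libraries. With 2 libraries against 2, the smallest two-sided p of an exact permutation test is 0.333, so the p-values printed depend on the dispersion that edgeR shares between genes (biological coefficient of variation 5.55% in HFD and 8.61% in ND mice). Replicates differed by more than counting noise (mean chi-square 4.19 to 10.1 per gene, where noise gives about 1), and nothing in the labels says how the pools of mice were formed. The reads carried no molecular identifiers. The scripts were tested on simulated counts.

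The 8 genes, the 19 lists (7 of pathways, 12 of cell type markers) and the tests were chosen with earlier results of these data known. Named from each pathway list were the called genes, at most 4 per diet by fold, or else the 2 with the highest FPKM, plus the 5 genes most like Trem2. Alternatives were DESeq2 1.42.0, library totals, RLE, other filters, limma 3.58.1 on log2(FPKM + 1) and log2(FPKM + 0.1), one fit of all libraries, the replicate block, the threshold of the methods section (0.6 on the log2 scale, unadjusted p), TPM, TMM counts and leaving out each library. Gene positions came from GENCODE on GRCm38 (mm10) and upstream windows from RefSeq (GRCm38.p6). Figures used matplotlib 3.10.9.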

Additional observations from a re-analysis of the deposited data

How the results depend on the processing

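Of the 8 genes, 3 were called higher in HFD ARMs and 2 in ND ARMs. In HFD mice this count was 1 without a filter on low counts, 0 with limma on log2(FPKM + 1) without a filter, and 1 to 4 when 1 library was left out. In ND mice it was 1 with DESeq2, 0 with limma on log2(FPKM + 1) without a filter, and 1 to 3 when 1 library was left out. Over the left-out libraries, the lowest counts came without HFD ARM replicate 2 and without ND ARM replicate 2. More genes are tested without a filter, and the cause of the other changes was not tested. DESeq2 did not call Spp1 in HFD mice (log2 fold change 1.16) or Gpnmb in ND mice (1.17). Limma on log2(FPKM + 1) with a filter did not call Spp1 in HFD mice (1.02, adjusted p = 0.0503). No gene of the 8 was called lower under any setting.

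Over all genes, 595 were called higher and 39 lower in HFD ARMs, against 33 to 922 and 2 to 95 over the other settings and 198 to 587 and 16 to 58 over the left-out libraries. For ND ARMs the counts were 442 and 16, against 0 to 794 and 0 to 94, and 171 to 617 and 15 to 44. For the difference between diets they were 9 and 13, against 8 to 53 and 5 to 134, and 0 to 30 and 0 to 72.

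Whether equal replicate numbers are pairs is not given in the labels. Over genes, the deviations of equal numbers correlated at 0.03 (HFD) and 0.18 (ND). With 2 possible pairs per diet these values can neither show nor exclude pairing. With the replicate number as a block, 3 (HFD) and 2 (ND) of the 8 genes were called and 0 differed between diets. Over all genes the block gave 719 higher and 67 lower calls in ND mice and 53 and 134 for the difference between diets.

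For HFD against ND, TMM-normalized counts gave 4 genes above and 2 below in ARMs, against 32.3% and 39.3% of all genes. In SMs they gave 2 above and 2 below, against 31.3% and 40.4% of all genes. On that scale the log2 ratio of Cd63 in ARMs turned to 0.12 and that of Tyrobp in SMs to 0.28. Leaving out 1 library gave, on FPKM, 2 to 4 genes above and 3 to 5 below in ARMs. In SMs it gave 1 to 2 above and 4 to 6 below. Fewer libraries overlap less often by construction, and no share of all genes is given beside these counts, so they are not read further. How the depth limits these values was not tested.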
